A study of Oryza sativa Japonica Group and Oryza sativa with 4 samples.

Results

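Nitrogen assimilation and remobilization were followed through 10 rice genes, listed by their RAP-DB identifiers, among 37849 genes in the deposited table. They comprise a nitrate reductase, a ferredoxin-nitrite reductase, 3 glutamine synthetases (GS), a ferredoxin-dependent glutamate synthase (Fd-GOGAT), an asparagine synthetase, 2 glutamate dehydrogenases (GDH) and Os01g0681900. The last was listed as a glutamate synthase, but the deposited files describe it as a non-protein-coding transcript of a single exon, and it is treated here as that. All 10 genes had reads in every library and passed the filter on low values.

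In leaves, nitrate reductase in the cytosol turns nitrate into nitrite, and nitrite reductase in the plastid turns nitrite into ammonium. GS joins ammonium to glutamate to give glutamine, and GOGAT passes the amide group on to make glutamate. The plastid GS and Fd-GOGAT take up the ammonium of nitrate reduction and photorespiration, whereas cytosolic GS and asparagine synthetase make the amides that carry nitrogen in the phloem, and GDH can release ammonium from glutamate when amino acids are broken down.

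Leaf RNA was sequenced from 4 groups of seedlings at 21 days after germination. NIL GRH and NIL control are the near-isogenic line carrying Grh1, a resistance gene against green rice leafhopper (GRH), which was derived from the indica cultivar Shingwang crossed with the japonica cultivar Ilpum. Ilpum GRH and Ilpum control are Ilpum itself, labelled wild type and susceptible to GRH. The GRH groups carried second instar nymphs for 48 h at room temperature, and the controls carried none. The NIL is 1 line, so its differences from Ilpum cannot be told apart from those of other donor segments it may hold.

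Each group had 1 library, so no difference below has a replicate check and no p-value is given. The libraries held 1170099 reads in NIL GRH, 5037081 in NIL control, 894661 in Ilpum GRH and 2119765 in Ilpum control. Levels are in FPKM, reads per kilobase of transcript scaled to library size, and can be compared between genes. Ratios are log2 of FPKM with 1 FPKM added (Log2FC). Intervals beside a level or a ratio are exact 95% intervals of the read counts and cover counting error only, without the spread between plants. They are too narrow if both mates of a read pair were counted. A gene was counted as higher or lower where its ratio was at least 2-fold, and the share of all 18575 expressed genes past the same fold is given as background. In these whole leaves, fewer cells of a type and less RNA per cell cannot be told apart.

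The 8 leaf mesophyll markers (Rubisco small subunits and light-harvesting proteins) all had reads, and their summed level was 5891 FPKM in NIL GRH, 19416 FPKM in NIL control, 14094 FPKM in Ilpum GRH and 23690 FPKM in Ilpum control. With GRH, 7 of the 8 were at least 2-fold lower in NIL and 2 of the 8 in Ilpum. In Ilpum, Os12g0291100 (1672 against 1255 FPKM) and Os12g0291400 (464 against 334 FPKM) were higher with GRH than in the control. Os01g0720500 was at 12.2 FPKM with GRH and 11.2 FPKM in the control, from 2 and 4 reads, too few to rank them. The other markers were lower with GRH in Ilpum. Of 3 root markers, Lsi2 and RCc3 were at 0 in every library and Lsi1 was the only 1 with reads, at 4.74 to 6.98 FPKM. The phloem sucrose transporter SUT1 was at 74.6 FPKM in NIL GRH, 42.2 FPKM in NIL control, 129 FPKM in Ilpum GRH and 59.9 FPKM in Ilpum control. Summed, leaf markers were thus abundant in every library, and the part of the mesophyll and phloem markers in the results below was not tested. Over long multi-exon genes, the median coverage of the 3′ part of a transcript relative to the 5′ part was 0.98 in NIL GRH, 1.11 in NIL control, 0.90 in Ilpum GRH and 0.90 in Ilpum control.

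Across the 10 genes, the GRH groups differed from their controls in both directions, and more widely in Ilpum. In NIL, 1 gene was at least 2-fold higher with GRH, against 14.7% of all genes, and 1 was lower, against 20.9%. In Ilpum, 3 were higher, against 20.4% of all genes, and 3 were lower, against 28.6%. These counts were close to those shares in Ilpum and below them in NIL, so as a group the genes did not stand out from the background. The background was not matched for level or read depth. Apart from Os02g0770800 in NIL, the 10 genes lay above the middle of all expressed genes in level. The median Log2FC of the 10 genes was −0.04 in NIL and −0.08 in Ilpum, where all genes had medians of −0.06 and −0.10. The description below therefore follows the single steps of the pathway.

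**Figure D1:**
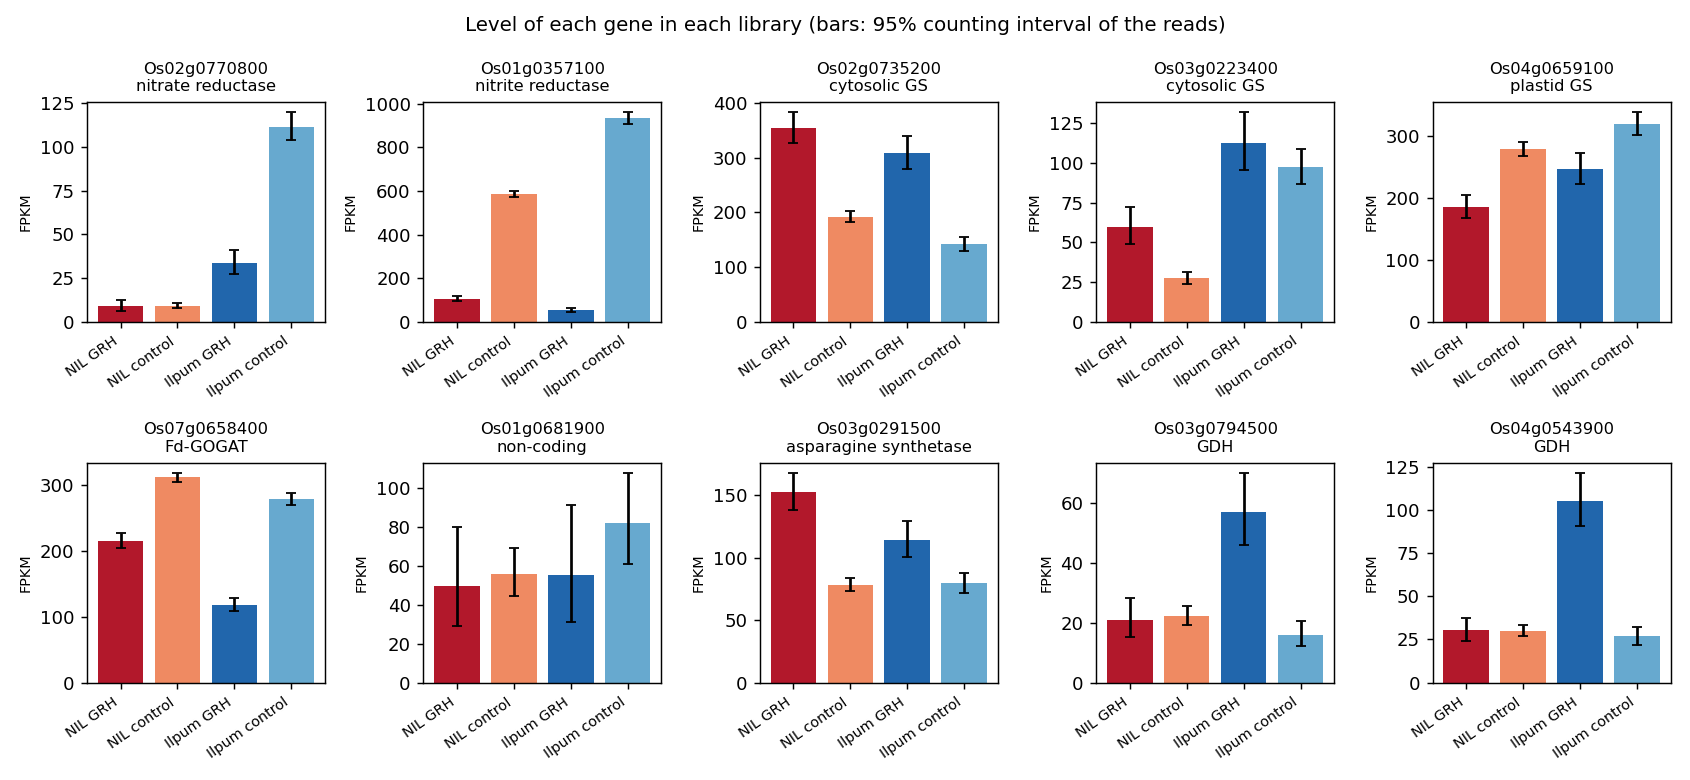
FPKM of each of the 10 genes (1 panel a gene, each with its own axis from 0) in NIL GRH, NIL control, Ilpum GRH and Ilpum control, 1 library each; error bars are 95% counting intervals. Nitrite reductase is low in both GRH libraries, the nitrate reductase Os02g0770800 is high in Ilpum control alone, and both GDH genes are high in Ilpum GRH alone.

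Nitrite reductase had the widest range of the 10 genes. Os01g0357100 encodes the ferredoxin-nitrite reductase of the plastid and lies on chromosome 1 from 14446913 to 14453454, plus strand, of the IRGSP-1.0 genome. Its level was 106 FPKM (323 reads) in NIL GRH, 588 FPKM (7282 reads) in NIL control, 54.8 FPKM (129 reads) in Ilpum GRH and 935 FPKM (4958 reads) in Ilpum control. Both GRH libraries were far below both controls, and the counting intervals did not overlap. It was the most abundant of the 10 genes in both controls, but ranked 5 of 10 in NIL GRH and 9 of 10 in Ilpum GRH. The Log2FC was −2.46 in NIL (interval −2.55 to −2.23), 5.51-fold lower with GRH, and −4.07 in Ilpum (−4.28 to −3.77), 16.8-fold lower. Only 1.42% of all genes had a Log2FC as low in Ilpum, and 5.18% in NIL. The NIL ratio exceeded the Ilpum ratio by 1.61 (counting interval 1.33 to 1.94).

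The order of the lines for nitrite reductase turned with the treatment. With GRH the NIL level was above the Ilpum level (Log2FC 0.94, interval 0.64 to 1.24), and without GRH it was below (−0.67, interval −0.75 to −0.64). Neither ratio reached 2-fold. The gene has 2 annotated transcripts, and the shorter, Os01t0357100-02, took 1.86% of its reads in NIL GRH, 32.9% in NIL control, 14.7% in Ilpum GRH and 24.6% in Ilpum control. The shorter form thus held a smaller share in the GRH libraries than in the controls of either line. Read from the longer transcript, Os01t0357100-01, alone, the Log2FC with GRH was −1.84 in NIL and −3.85 in Ilpum, so that nitrite reductase was lower in both lines by either measure.

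Upstream of this step, the listed nitrate reductase was low in both NIL libraries. Os02g0770800, described as similar to NAD(P)H nitrate reductase, is a gene of 4 exons on chromosome 2 from 32513749 to 32517155, minus strand. Its level was 9.05 FPKM (34 reads) in NIL GRH, 9.02 FPKM (144 reads) in NIL control, 33.5 FPKM (98 reads) in Ilpum GRH and 112 FPKM (752 reads) in Ilpum control. The NIL libraries were alike and below both Ilpum libraries. The Log2FC with GRH was 0.00 in NIL (interval −0.56 to 0.57) and −1.70 in Ilpum (−2.01 to −1.39), 3.26-fold lower. The NIL ratio exceeded the Ilpum ratio by 1.71 (1.05 to 2.36).

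In the controls, Os02g0770800 was 11.2-fold lower in NIL than in Ilpum (Log2FC −3.49, interval −3.90 to −3.37), and only 0.393% of all genes lay as low. With GRH it was 3.44-fold lower in NIL (−1.78, interval −2.52 to −1.34). The genes around it were low in NIL about as often as all genes. Of 44 expressed genes within 250 kb on either side, 2 (4.55%) were at least 2-fold lower in NIL in both comparisons, against 5.17% of all genes. The count covers lower genes only, and whether the region is a donor segment was not tested. Coverage of the 3′ part of this transcript relative to the 5′ part was 1.47 in NIL GRH, 0.95 in NIL control, 2.11 in Ilpum GRH and 0.84 in Ilpum control, and its part in the ratios was not tested.

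The other nitrate reductases were lower with GRH in NIL as well as in Ilpum. Os08g0468100 and Os08g0468700, neighbouring genes described as nitrate reductases, were chosen for comparison after their values were seen, and their reads may be shared between near-identical copies. Os08g0468100 was at 105 FPKM in NIL GRH, 223 FPKM in NIL control, 125 FPKM in Ilpum GRH and 759 FPKM in Ilpum control. Os08g0468700 was at 37.8 FPKM in NIL GRH, 111 FPKM in NIL control, 74.3 FPKM in Ilpum GRH and 376 FPKM in Ilpum control. Both were lower with GRH in both lines, with Log2FC of −1.08 and −1.53 in NIL and −2.59 and −2.32 in Ilpum. Os02g0770800 therefore supplied a small part of the summed nitrate reductase level, 5.97% in NIL GRH, 2.63% in NIL control, 14.4% in Ilpum GRH and 8.95% in Ilpum control.

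Summed over the 3 copies, nitrate reductase was at 151 FPKM in NIL GRH, 343 FPKM in NIL control, 233 FPKM in Ilpum GRH and 1246 FPKM in Ilpum control. The log2 ratio of the sum with GRH was −1.18 in NIL (−1.32 to −1.07) and −2.42 in Ilpum (−2.54 to −2.31). Between the lines it was −0.62 with GRH (−0.80 to −0.47) and −1.86 without (−1.92 to −1.82). Nitrite reductase differed more from its control than the nitrate reductase sum did. The ratio of nitrite reductase to summed nitrate reductase was 0.699 in NIL GRH against 1.71 in NIL control (log2 difference −1.30, counting interval −1.41 to −0.99), and 0.235 in Ilpum GRH against 0.750 in Ilpum control (−1.67, interval −1.88 to −1.32).

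**Figure D2:**
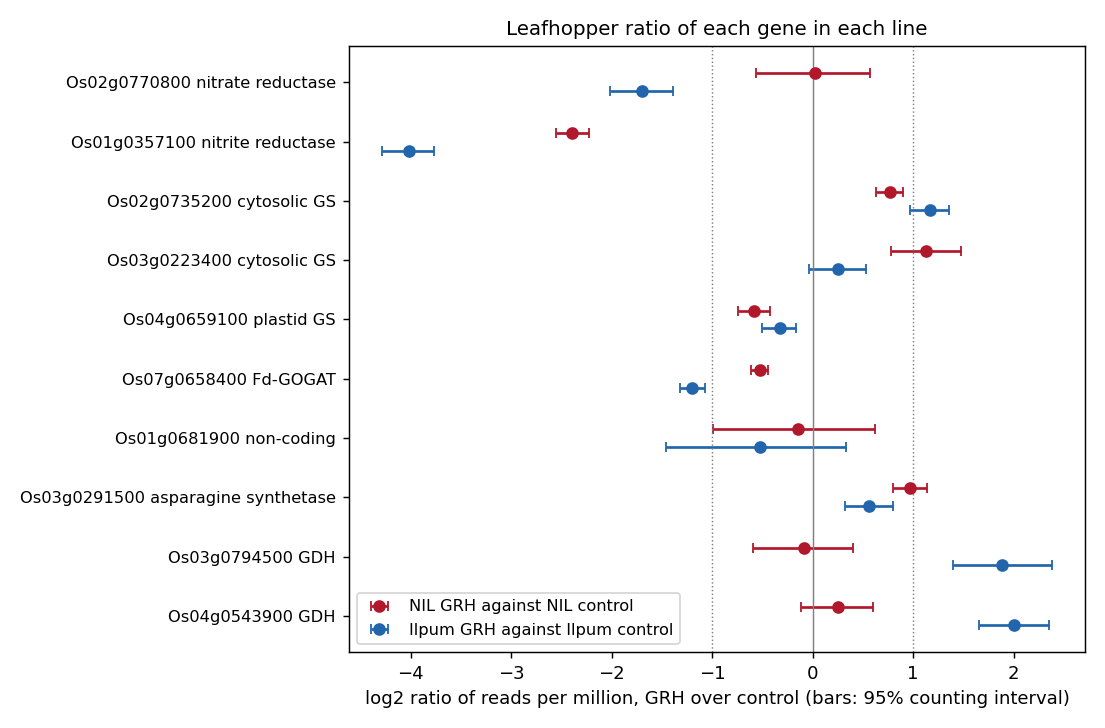
Log2 ratio of library-scaled reads, GRH over control, for each gene in NIL (red) and Ilpum (blue), 1 library a group; bars are 95% counting intervals, the solid line marks no difference and dotted lines mark 2-fold. Nitrite reductase lies furthest to the left in both lines, and for the nitrate reductase Os02g0770800 and both GDH genes the interval covers 0 in NIL and not in Ilpum.

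At the GS step, the most abundant cytosolic gene was higher with GRH and the plastid gene lower, while the other cytosolic genes differed in their direction. Os02g0735200, a cytosolic GS on chromosome 2 from 30674780 to 30678659, minus strand, was at 354 FPKM (613 reads) in NIL GRH, 192 FPKM (1552 reads) in NIL control, 308 FPKM (418 reads) in Ilpum GRH and 141 FPKM (442 reads) in Ilpum control. Both GRH libraries were above both controls. It was the most abundant of the 10 genes in both GRH libraries and ranked 4 of 10 in both controls. The Log2FC was 0.88 in NIL (interval 0.63 to 0.90), short of 2-fold, and 1.12 in Ilpum (0.97 to 1.36), 2.17-fold higher. Scaling by quantiles brought the Ilpum ratio just short of 2-fold, at 0.99. Between the lines the Log2FC was 0.20 with GRH (−0.02 to 0.35) and 0.44 without (0.41 to 0.72).

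The transcripts of Os02g0735200 were divided differently in 1 library. Os02t0735200-02 took 92.1% of its reads in NIL control, against 10.1% in NIL GRH, 8.37% in Ilpum GRH and 7.01% in Ilpum control. The transcripts span nearly the same stretch, and StringTie divides shared reads among them by estimation. The sum over transcripts was used for that reason. With Os02t0735200-01 alone, the Log2FC in NIL was 4.06 in place of 0.88, and that between the control libraries was −2.80 in place of 0.44.

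Os03g0223400, a further cytosolic GS, lies on chromosome 3 from 6457915 to 6462146, minus strand. Its level was 59.7 FPKM (106 reads) in NIL GRH, 27.4 FPKM (208 reads) in NIL control, 113 FPKM (157 reads) in Ilpum GRH and 97.3 FPKM (312 reads) in Ilpum control. Both NIL libraries were below both Ilpum libraries. With GRH it was 2.14-fold higher in NIL (Log2FC 1.10, interval 0.78 to 1.48), the only 1 of the 10 genes to reach 2-fold there, and scaling by TMM or by quantiles brought it just short of this. In Ilpum the Log2FC was 0.21 (−0.03 to 0.53). In the controls it was 3.46-fold lower in NIL than in Ilpum (−1.79, interval −2.09 to −1.58), and with GRH the Log2FC between the lines was −0.91 (−1.32 to −0.59).

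The plastid GS, Os04g0659100 on chromosome 4 from 33624428 to 33631025, minus strand, varied little. It was at 186 FPKM (369 reads) in NIL GRH, 279 FPKM (2371 reads) in NIL control, 247 FPKM (384 reads) in Ilpum GRH and 320 FPKM (1142 reads) in Ilpum control. The Log2FC with GRH was −0.59 in NIL (−0.74 to −0.42) and −0.37 in Ilpum (−0.50 to −0.16). Both intervals lay below 0, and neither ratio reached 2-fold. The summed mesophyll markers differed by more in the same direction, with log2 ratios of −1.72 in NIL and −0.75 in Ilpum, though some single markers were higher with GRH in Ilpum.

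The plastid share of GS was lower with GRH in both lines. The plastid gene held 31.0% of the summed level of these 3 GS genes in NIL GRH against 56.0% in NIL control, and 37.0% in Ilpum GRH against 57.3% in Ilpum control. The ratio of plastid GS to the sum of Os02g0735200 and Os03g0223400 was 0.449 in NIL GRH against 1.27 in NIL control (log2 difference −1.50, interval −1.60 to −1.19). It was 0.586 in Ilpum GRH against 1.34 in Ilpum control (−1.19, interval −1.41 to −0.95). The summed level of the 3 genes moved much less, with 599 FPKM in NIL GRH, 499 FPKM in NIL control, 668 FPKM in Ilpum GRH and 559 FPKM in Ilpum control. A further gene described as cytosolic GS, Os03g0712800, chosen after its values were seen, was lower with GRH, with 23.0 FPKM (42 reads) in NIL GRH, 92.9 FPKM (727 reads) in NIL control, 2.80 FPKM (4 reads) in Ilpum GRH and 18.6 FPKM (62 reads) in Ilpum control. Its Log2FC was −1.97 in NIL (−2.49 to −1.56) and −2.37 in Ilpum (−4.63 to −1.28). With this gene in the cytosolic sum, which was added after the data were seen, the plastid to cytosolic ratio was 0.426 in NIL GRH against 0.895 in NIL control (log2 difference −1.07, interval −1.18 to −0.78), and 0.583 in Ilpum GRH against 1.24 in Ilpum control (−1.09, interval −1.31 to −0.85).

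**Figure D3:**
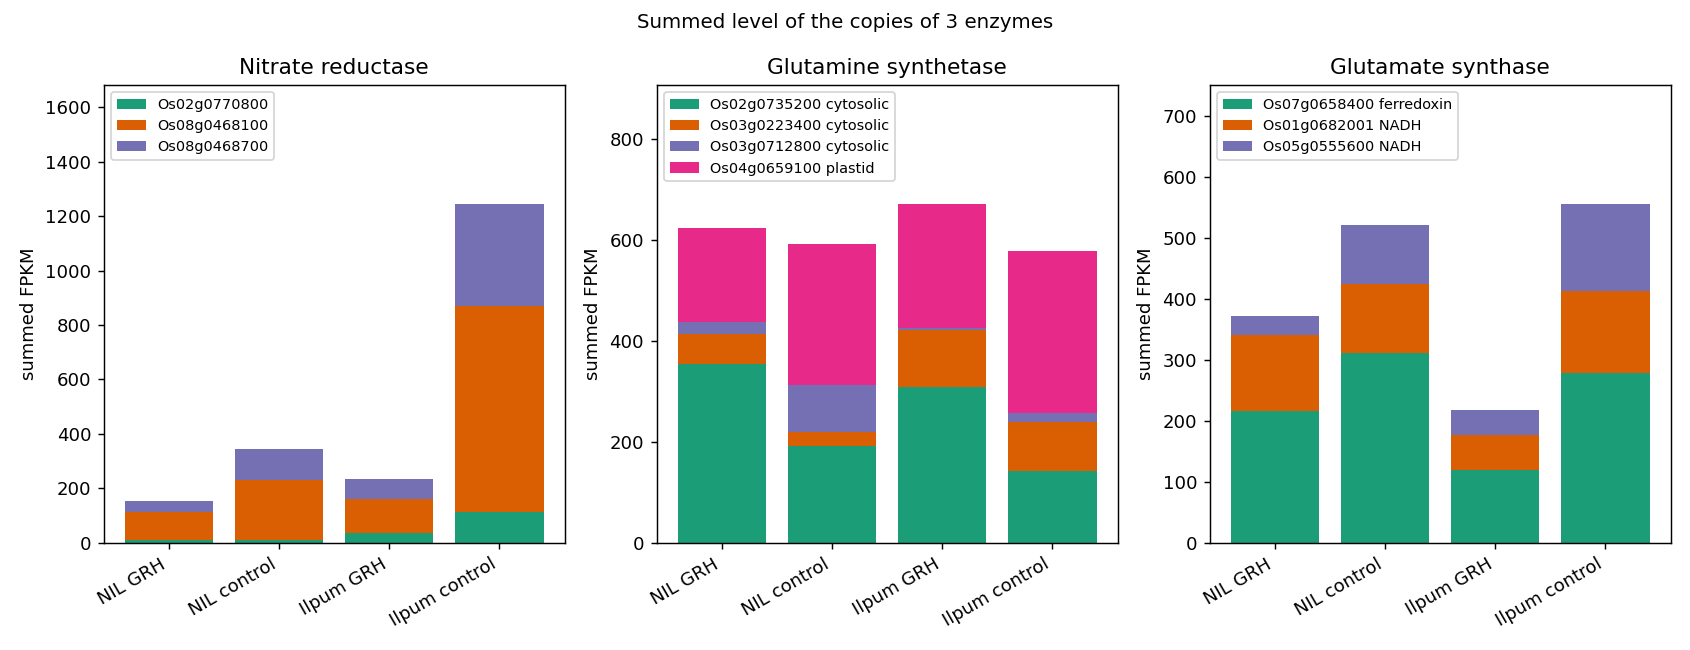
Summed FPKM of the copies of nitrate reductase, GS and GOGAT in NIL GRH, NIL control, Ilpum GRH and Ilpum control, stacked by gene from 0, 1 library a bar. The 4 GS bars are of like height but hold less plastid GS (pink) and more Os02g0735200 (green) in the GRH libraries, while nitrate reductase is highest in Ilpum control.

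Fd-GOGAT, which draws on reduced ferredoxin in the plastid, differed by line in its GRH ratio. Os07g0658400 has 33 exons on chromosome 7 from 27723089 to 27738212, minus strand. It was at 215 FPKM (1419 reads) in NIL GRH, 311 FPKM (8805 reads) in NIL control, 118 FPKM (612 reads) in Ilpum GRH and 278 FPKM (3324 reads) in Ilpum control. The GRH libraries were below both controls, and Ilpum GRH was the lowest. The Log2FC was −0.53 in NIL (−0.61 to −0.45) and −1.23 in Ilpum (−1.32 to −1.07), 2.34-fold lower, and the NIL ratio exceeded the Ilpum ratio by 0.70 (0.52 to 0.82).

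Relative to plastid GS, with which it works, Fd-GOGAT was lower with GRH in Ilpum and within counting error of its control in NIL. The ratio of Fd-GOGAT to plastid GS was 1.16 in NIL GRH against 1.12 in NIL control (log2 difference 0.05, interval −0.13 to 0.23), and 0.479 in Ilpum GRH against 0.870 in Ilpum control (−0.86, interval −1.08 to −0.66).

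The entry listed as a glutamate synthase, Os01g0681900, spans only 277 bases on chromosome 1 from 28091236 to 28091512, minus strand. It was at 49.9 FPKM (17 reads) in NIL GRH, 55.8 FPKM (81 reads) in NIL control, 55.4 FPKM (15 reads) in Ilpum GRH and 82.0 FPKM (51 reads) in Ilpum control. With so few reads, the Log2FC of −0.16 in NIL (−0.99 to 0.62) and −0.56 in Ilpum (−1.46 to 0.33) did not differ from 0 beyond counting error. Of the genes that the deposited files describe as NADH glutamate synthases, Os04g0490000 had at most 20 reads in a library, and the other expressed genes were Os01g0682001 and Os05g0555600. The nearer of them, Os01g0682001, lies 7.33 kb away toward higher coordinates, on the same strand.

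Those NADH-GOGAT genes, chosen after their values were seen, differed from each other. Os01g0682001 was at 125 FPKM in NIL GRH, 112 FPKM in NIL control, 58.7 FPKM in Ilpum GRH and 135 FPKM in Ilpum control. Os05g0555600 was at 31.9 FPKM in NIL GRH, 96.6 FPKM in NIL control, 40.0 FPKM in Ilpum GRH and 143 FPKM in Ilpum control. With GRH, Os01g0682001 had a Log2FC of 0.15 in NIL and −1.19 in Ilpum, and Os05g0555600 had −1.57 in NIL and −1.81 in Ilpum. The low values of Os05g0555600 rest on its transcript Os05t0555600-02, which had reads in the controls only, while Os05t0555600-01 was at 31.9 FPKM in NIL GRH, 21.6 FPKM in NIL control, 40.0 FPKM in Ilpum GRH and 26.05 FPKM in Ilpum control.

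The asparagine synthetase Os03g0291500 was higher with GRH in both lines, short of 2-fold. The gene, on chromosome 3 from 10120289 to 10124384, minus strand, makes asparagine with glutamine as the nitrogen donor. It was at 152 FPKM (417 reads) in NIL GRH, 78.4 FPKM (918 reads) in NIL control, 114 FPKM (245 reads) in Ilpum GRH and 79.4 FPKM (393 reads) in Ilpum control. The controls were alike, and both GRH libraries were above them. The Log2FC was 0.95 in NIL (0.80 to 1.14) and 0.52 in Ilpum (0.33 to 0.80), and the NIL ratio exceeded the Ilpum ratio by 0.43 (0.11 to 0.70). Between the lines it was 0.41 with GRH (0.15 to 0.61) and −0.02 without (−0.20 to 0.15). Another asparagine synthetase, Os06g0265000, chosen after its values were seen, was at 25.6 FPKM (71 reads) in NIL GRH, 22.0 FPKM (261 reads) in NIL control, 10.7 FPKM (24 reads) in Ilpum GRH and 20.3 FPKM (102 reads) in Ilpum control. Its Log2FC was 0.21 in NIL (−0.17 to 0.61) and −0.86 in Ilpum (−1.55 to −0.19), so the 2 genes differed in opposite directions with GRH in Ilpum.

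Both GDH genes were high in 1 library, Ilpum GRH. Os03g0794500, on chromosome 3 from 33038059 to 33041471, minus strand, was at 20.9 FPKM (43 reads) in NIL GRH, 22.2 FPKM (196 reads) in NIL control, 56.9 FPKM (92 reads) in Ilpum GRH and 15.9 FPKM (59 reads) in Ilpum control. Os04g0543900, on chromosome 4 from 27233362 to 27238105, plus strand, was at 30.4 FPKM (84 reads) in NIL GRH, 30.1 FPKM (304 reads) in NIL control, 106 FPKM (191 reads) in Ilpum GRH and 26.7 FPKM (113 reads) in Ilpum control. In each gene the interval of Ilpum GRH lay above those of the other 3 libraries. Coverage of the 3′ part of Os03g0794500 relative to the 5′ part was 0.74 in NIL GRH, 1.93 in NIL control, 1.92 in Ilpum GRH and 0.66 in Ilpum control, and its part in the ratios was not tested.

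In Ilpum the Log2FC was 1.78 for Os03g0794500 (1.40 to 2.38), 3.43-fold higher with GRH, and 1.94 for Os04g0543900 (1.66 to 2.35), 3.84-fold higher. Of all genes, 11.7% had a larger Log2FC than Os03g0794500 and 10.4% than Os04g0543900. In NIL the values were −0.08 (−0.59 to 0.40) and 0.02 (−0.12 to 0.60). The NIL ratio was below the Ilpum ratio by 1.86 for Os03g0794500 (difference −1.86, interval −2.68 to −1.26) and by 1.93 for Os04g0543900 (−1.93, interval −2.26 to −1.25). The proportion between them varied little, Os04g0543900 standing at 1.36 to 1.85 times Os03g0794500 over the 4 libraries.

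With GRH, both GDH genes were lower in NIL than in Ilpum, with Log2FC of −1.40 for Os03g0794500 (−2.04 to −0.95) and −1.76 for Os04g0543900 (−1.96 to −1.19). Without GRH they were 0.46 (0.06 to 0.93) and 0.16 (−0.14 to 0.50). A further gene described as GDH, Os07g0238700, chosen after its values were seen, did not share this pattern, with 8.33 FPKM in NIL GRH, 7.0 FPKM in NIL control, 6.80 FPKM in Ilpum GRH and 15.7 FPKM in Ilpum control. The transcripts of Os04g0543900 were also divided unevenly, with 41.7% of reads on Os04t0543900-01 in NIL GRH, 5.92% in NIL control, 0% in Ilpum GRH (0 of 191 reads, exact 95% interval up to 1.91%) and 1.77% in Ilpum control.

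**Figure D4:**
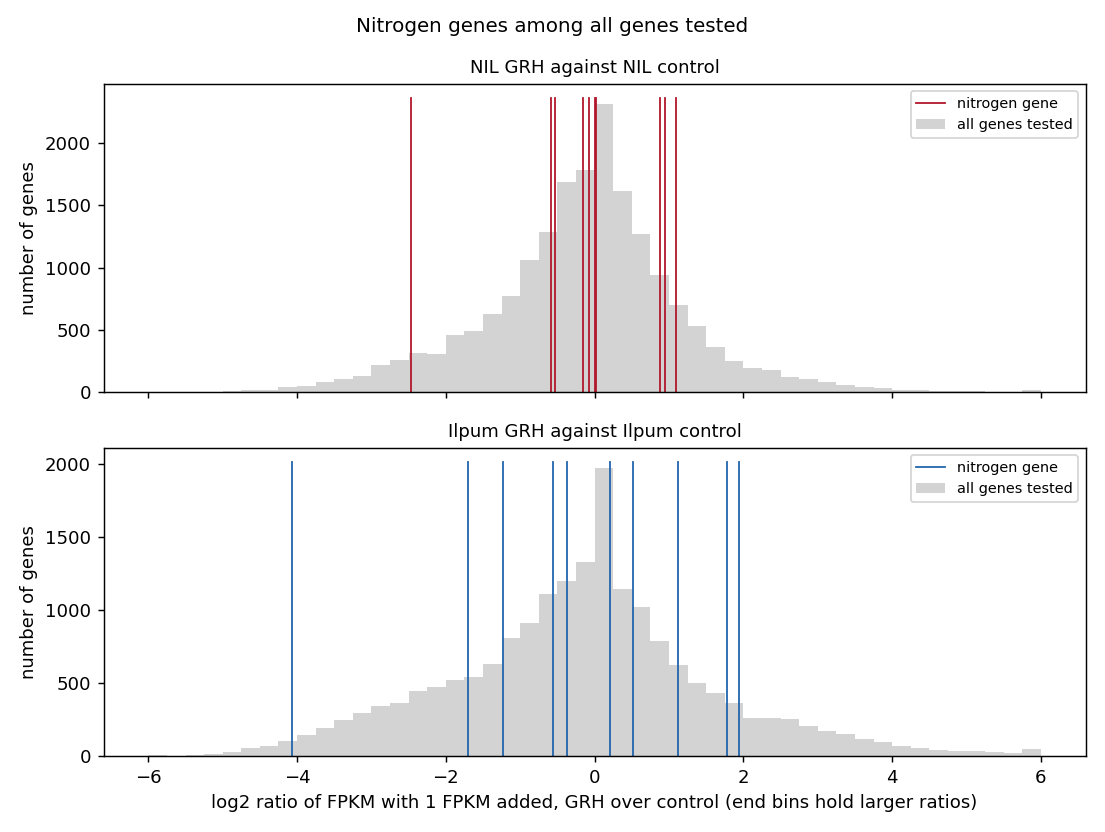
Number of the 18575 expressed genes by Log2FC (FPKM with 1 FPKM added, GRH over control) in NIL (upper) and Ilpum (lower), in bins of 0.25, with a coloured line at each of the 10 nitrogen genes. In NIL 8 of the 10 lie within 2-fold and nitrite reductase stands alone on the left, whereas in Ilpum the genes are spread from −4.07 to 1.94.

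Between the lines, 3 of the 10 genes were at least 2-fold lower in NIL GRH than in Ilpum GRH, against 23.7% of all genes, and 0 were higher, against 25%. These were the nitrate reductase Os02g0770800 and both GDH genes. In the controls, 2 were lower in NIL than in Ilpum, against 14% of all genes, and 0 were higher, against 14.1%. These were Os02g0770800 and the cytosolic GS Os03g0223400. The median Log2FC of the 10 genes was −0.28 with GRH and −0.11 without, where all genes had medians of 0.00 and −0.02. The line comparisons use the same 4 libraries as the GRH comparisons and are not independent of them.

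**Figure D5:**
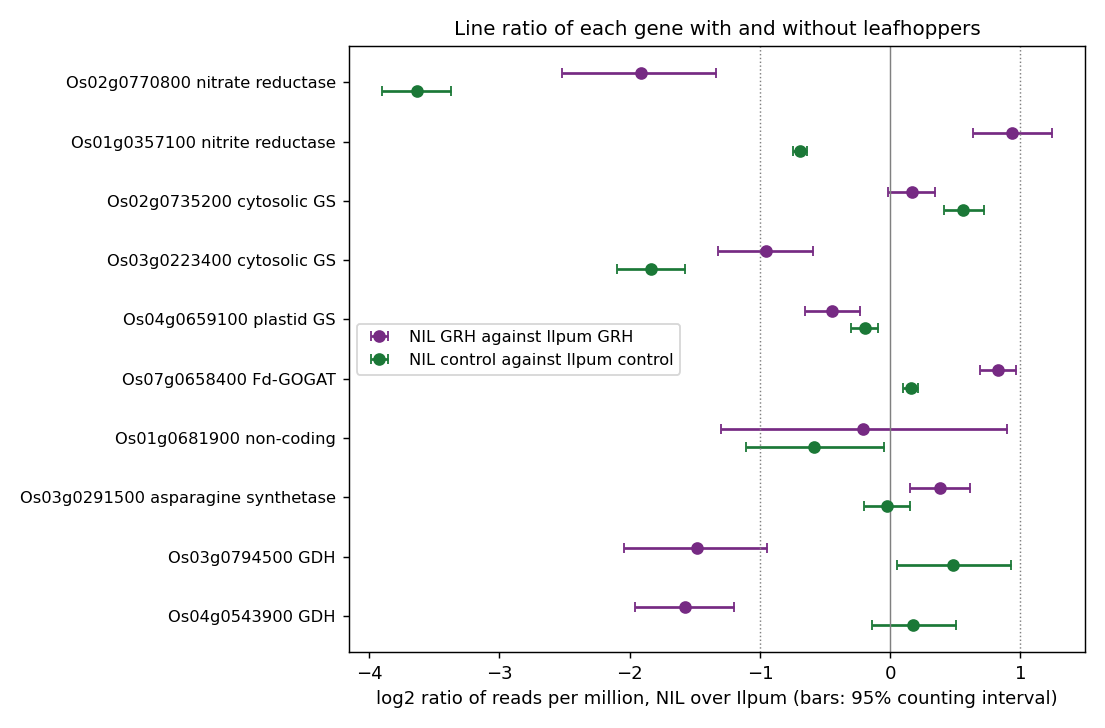
Log2 ratio of library-scaled reads, NIL over Ilpum, for each gene with GRH (purple) and without (green), 1 library a group; bars are 95% counting intervals, the solid line marks no difference and dotted lines mark 2-fold. The nitrate reductase Os02g0770800 and the cytosolic GS Os03g0223400 are lower in NIL under both conditions, and the GDH genes with GRH only.

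The GRH ratios of the lines differed by at least 1 on the log2 scale in 4 of the 10 genes (nitrite reductase, the nitrate reductase Os02g0770800 and both GDH genes), against 50.1% of all genes. The counting interval of the difference excluded 0 in 9 of the 10, the exception being Os01g0681900. The share of all genes was not counted for this, so the count does not set these genes apart. Genes with many reads have narrow intervals, and small differences are included, such as −0.21 for Os04g0659100 (interval −0.48 to −0.02). The 2 ratios had opposite signs in 2 of the 10, Os02g0770800 and Os03g0794500, against 37.2% of all genes, and in both the NIL ratio was within counting error of 0. After TMM scaling the NIL ratio of Os02g0770800 was −0.14 and 1 gene kept opposite signs. After quantile normalization Os04g0543900, at −0.06 in NIL, was a further gene with opposite signs. It was so too with the most abundant transcript, at −0.45 in NIL.

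Other genes of the pathway were searched by words in the descriptions. The search for further copies of these enzymes returned 19 expressed genes, of which 7 are other enzymes by their descriptions. Of the 12 that remain, 7 were at least 2-fold lower with GRH in NIL and 10 in Ilpum, and 0 were higher in either line. Of all genes, 20.9% were as low in NIL and 28.6% in Ilpum, and 14.7% and 20.4% as high. The 12 genes had median Log2FC of −1.31 in NIL and −2.07 in Ilpum. Setting those at 0 reads in a library to 3 reads, 3 of the 12 in NIL and 4 in Ilpum, gave medians of −0.85 and −1.57. The counts past 2-fold were not redone in this way, so genes at 0 reads with GRH may be among the lower ones. Counts were low in some of them, and 8 of the 12 averaged 30 or more reads a library. Nitrate and ammonium transporters were divided, with 3 of 15 higher and 3 lower in NIL, and 4 higher and 2 lower in Ilpum, to be read against the same shares of all genes.

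Genes near the pathway, found by words in their descriptions, were also counted past 2-fold. A search by words for the molybdenum cofactor, siroheme and ferredoxin-NADP returned 13 expressed genes. Of these, 4 were lower with GRH in NIL and 4 in Ilpum, and 0 were higher. The 13 genes include Os09g0560700 and Os09g0560800, described as having a molybdenum cofactor sulfurase domain. In NIL their Log2FC was −0.90 and 0.24, short of 2-fold. In Ilpum it was −4.71 and −4.16, and both had 0 reads in Ilpum GRH, the shallowest library. Whether each gene serves nitrate or nitrite reduction was not checked. Among 11 genes for carbon skeletons, which include phosphoenolpyruvate carboxylase and isocitrate dehydrogenase, 1 was higher and 1 lower in NIL, and 0 were higher and 4 lower in Ilpum. The isocitrate dehydrogenase gene Os02g0595500 had 0 reads in Ilpum GRH. Of 8 aminotransferases, which pass the amino group of glutamate on to aspartate and alanine, 1 was higher in NIL and 2 in Ilpum, and 0 were lower. The shares of all genes were 14.7% higher and 20.9% lower in NIL, and 20.4% and 28.6% in Ilpum.

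The patterns most like that of nitrite reductase, by root mean square distance of centred log2 levels over the 4 libraries among 4761 well-covered genes, were those of Os08g0203600 (distance 0.39), of non-symbiotic hemoglobin 2 (Os03g0226200, 0.55) and of Os05g0594500 (0.55). The hemoglobin was at 14.7 FPKM in NIL GRH, 58.9 FPKM in NIL control, 2.67 FPKM in Ilpum GRH and 165 FPKM in Ilpum control. For the nitrate reductase Os02g0770800 the nearest were Os12g0105300 (0.44), described as having an actin-binding FH2 domain, Os01g0910500 (0.45), a conserved hypothetical protein, and Os04g0683700 (0.46), described as similar to 4-coumarate-CoA ligase. With 4 libraries, these distances describe likeness only.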

How the data were processed

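Leaf RNA-Seq of NIL GRH, NIL control, Ilpum GRH and Ilpum control (1 library each, 21 days after germination) was used as deposited. Per the file headers, the authors ran StringTie 1.3.4d on stranded reads with the RAP-DB transcripts of the IRGSP-1.0 genome, and the submitters' processing notes name Trimmomatic. The authors deposited FPKM, TPM, coverage and an estimated count of reads for each transcript. These estimated counts, as deposited, follow from StringTie coverage: over genes with 1 transcript, 54333 of 54344 values differed by no more than 1 read from coverage × length / 101, the apparent read length. Both mates of a pair may enter. Where they do, the reads are not independent, and the counting intervals are narrower than they should be. The methods of the study speak of duplicate leaf samples and of TMM scaling, but 1 set of values per condition was analysed here.

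Gene values are sums over transcripts. Ratios are log2 of FPKM with 1 added. Background shares are over the 18575 genes that averaged 1 FPKM or more. Exact binomial intervals (95%) of read ratios were scaled by library totals, and the difference between lines has an exact conditional interval. They cover counting error only. The intervals belong to the read ratios, which can differ from the FPKM ratios with 1 added, also for the summed copies. For Os04g0543900 in NIL the read ratio was 0.25 and the Log2FC 0.02. For Os02g0770800, with a single transcript, they were −3.63 and −3.49 between the controls. The steps were tested on simulated counts. Software was Python 3.11.15, scipy 1.17.1, R 4.3.3 and edgeR 4.0.16 (TMM factors only).

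All 10 genes were named. From the word lists, counts are given, with at most 2 genes named per list, and for the 2 genes with the widest range the 3 most similar patterns among genes averaging 100 reads or more. The genes, word lists and markers were chosen with earlier results of these data known. The 7 further enzyme copies, with their sums and ratios, the removal of other enzymes from the copy list, the medians at 3 reads and the GS ratio over 3 cytosolic genes were chosen after the values were seen. Alternatives were 0.1 FPKM added, TPM, TMM or total-read scaling of counts with 0.5 added, quantile normalization, a 4-fold threshold, a filter at 5 FPKM or none, the most abundant transcript and the gene tables of each library. No sequences were used here.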

Additional observations from a re-analysis of the deposited data

Results flagged for a closer look

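The GRH ratio of the nitrate reductase Os02g0770800 had opposite signs in the lines, with Log2FC of 0.00 in NIL and −1.70 in Ilpum, a difference of 1.71. The same held for the GDH gene Os03g0794500, with −0.08 in NIL and 1.78 in Ilpum, a difference of −1.86. With 1 library per group neither difference was tested, and the counting intervals of both NIL ratios include 0. After TMM scaling the NIL ratio of Os02g0770800 was −0.14, with the sign of the Ilpum ratio.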

How the results depend on the processing

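No paired analysis was possible because each group has 1 library, and no replicate could be left out for the same reason. The numbers of genes past the threshold changed by more than 1.5 times in these cases. With GRH in NIL, 0 genes were higher after TMM scaling, 0 after quantile normalization, 0 at a 4-fold threshold and 2 with the most abundant transcript, in place of 1. In Ilpum at 4-fold, 0 were higher and 1 lower, in place of 3 and 3. For NIL GRH against Ilpum GRH, 1 gene (nitrite reductase) was higher after TMM scaling and 1 with the most abundant transcript, in place of 0, and 0 were lower at 4-fold, in place of 3. For the controls, 1 was lower in NIL at 4-fold, in place of 2. The other 77 recomputed counts were within 1.5 times those reported. Among them, 2 genes were higher with GRH in Ilpum after quantile normalization, in place of 3. Of 350 recomputed ratios and differences of single genes, 332 moved by less than their counting interval and 18 by more (7 with TMM, 8 with the most abundant transcript, 3 with quantiles), and 0 that were past the threshold changed sign. The Log2FC of Os02g0735200 depends on which transcript is read (0.88 in NIL by gene, 4.06 by transcript). Its sign turned for the difference between lines (−0.24 by gene, 2.98 by transcript) and between the controls (0.44 by gene, −2.80 by transcript). Neither was past the threshold by gene. TMM moved the median of all genes by −0.11 in the NIL and in the NIL GRH against Ilpum GRH comparisons, and total-read scaling moved the last by −0.17. Depth limits Os01g0681900, with 15 to 81 reads, and Os02g0770800 in NIL GRH, with 34 reads.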

Other observations

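Amino acid carriers move amino acids across membranes, and those past 2-fold were mostly higher with GRH in NIL and divided in Ilpum. Of 38 expressed amino acid carriers, 11 were at least 2-fold higher and 4 lower in NIL GRH than in NIL control (median Log2FC 0.48), and 11 were higher and 10 lower in Ilpum GRH than in Ilpum control (median 0.26). With 0 reads set to 3 the medians were 0.51 and 0.26. The carrier with the largest difference among those averaging 30 or more reads, Os01g0597600, was at 73.5 FPKM in NIL GRH, 37.1 FPKM in NIL control, 696 FPKM in Ilpum GRH and 12.8 FPKM in Ilpum control. Its Log2FC was 0.97 in NIL (counting interval 0.68 to 1.29) and 5.65 in Ilpum (5.33 to 6.23). The ammonium transporter Os03g0838400 was at 23.8 FPKM in NIL GRH, 4.06 FPKM in NIL control, 15.2 FPKM in Ilpum GRH and 5.57 FPKM in Ilpum control. Of 8 genes for the release and storage of nitrogen, which include asparaginase, urease and glutamate decarboxylase, 1 was higher and 1 lower in NIL, and 3 were higher and 0 lower in Ilpum. Of all genes, 14.7% were as high and 20.9% as low in NIL, and 20.4% and 28.6% in Ilpum.

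Autophagy genes act in the breakdown of leaf protein. Of 13 expressed autophagy genes, 7 were at least 2-fold higher and 0 lower in NIL GRH than in Ilpum GRH, against 25% and 23.7% of all genes (median Log2FC 1.23), and 3 of the 7 had 0 reads in Ilpum GRH, the shallowest library. With these set to 3 reads the median was 0.83. Against its own control, 0 of 13 were higher and 0 lower in NIL GRH, and 0 were higher and 4 lower in Ilpum GRH. Of all genes, 14.7% were as high and 20.9% as low in NIL, and 20.4% and 28.6% in Ilpum. The 4 lower in Ilpum were thus close to the share of all genes, and 3 of the 13 had 0 reads in that comparison.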
